A study of Mus musculus with 4 samples.

Results

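The genes described here encode aminoacyl-tRNA synthetases, the enzymes that join each amino acid to its tRNA before protein synthesis. They were taken as all probes of the array whose platform gene symbol is that of a cytosolic synthetase or of its mitochondrial counterpart, whose symbol ends in 2. This gave 77 of 45281 probes, for 35 of 19057 named genes, of which 19 are cytosolic and 16 mitochondrial. The symbol Mars, on the list that defined the set, appears in the annotation as Mars1. Dars, also on that list, was not analysed here. RNA of C57BL/6 mouse yolk sacs, taken at embryonic day 9.5, was measured on Illumina bead arrays, which read each probe as the fluorescence of beads that carry it. There were 2 arrays labelled Flk1Cre;ETV2 CKO and 2 labelled control. In the first group, per the labels, Etv2 was inactivated by loxP-Cre recombination in cells positive for FLK1, the receptor encoded by Kdr. The labels do not say whether controls carried the Cre or the loxP sites, or whether an array holds more than a single yolk sac. Cre was directed to FLK1-positive cells while RNA came from the whole yolk sac, in which fewer cells of a type and less RNA per cell cannot be told apart.

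Each amino acid has its own synthetase, and the cytosol and the mitochondrion mostly use different genes for the same amino acid. The enzymes form 2 structural families, class I and class II, which differ in the fold of the catalytic domain. In animal cells several cytosolic synthetases sit together in a multisynthetase complex, held by the scaffold proteins AIMP1, AIMP2 and EEF1E1. Many cytosolic synthetase genes are known targets of the transcription factor ATF4, which cells make in larger amounts when amino acids are short or the endoplasmic reticulum is stressed. The yolk sac at this stage has an endoderm that secretes large amounts of protein, beside blood and vessel cells.

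Between 17934 and 18798 probes were above background on each array, meaning a detection p under 0.05. Yolk sac markers were present, since Afp, Ttr and Apoa1 of the endoderm and the embryonic globin genes Hbb-bh1, Hbb-y and Hba-x were above background on all 4 arrays. Both Kdr probes were below background on all 4. The Etv2 probe had a normalized log2 signal of 6.83 and 6.80 on the CKO arrays, against 6.29 and 6.43 on the control arrays, a log2 change of 0.46 ± 0.10 (SE, n = 2 a group, limma adjusted p = 0.0199). The targeted gene was thus not lower under the CKO label, and its call was lost on the authors' values (0.13) and without either CKO array or control replicate 1 (0.39 to 0.47). Whether the probe lies in the deleted part of Etv2 is not known here, so the group names rest on the labels. The number of arrays limits the precision of every value below, and as no label names separate embryos or litters, the p-values reflect array-to-array spread that may be technical.

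A gene was tested where a probe was above background on 2 or more of the 4 arrays, which left 31 synthetase genes, 17 cytosolic and 14 mitochondrial. For 29 of these the tested probe was above background on all 4 arrays. The others were Nars2 and Wars2, each above background on 3, with detection p-values of 0.108 and 0.0833 on CKO replicate 1. Hars lay just outside, with a detection p of 0.0299 on control replicate 1 and 0.0545 on control replicate 2. Cars, Hars2 and Yars2 were not above background on any array by any of their probes. Those 4 genes enter no count of tested genes below except those with no filter on dim probes.

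On the CKO arrays 6 of the 31 synthetase genes fell, which is 19.4%, and 0 rose, at a limma adjusted p under 0.05. Over all 10603 genes tested, 10.8% fell and 14.4% rose. The genes that fell were Mars2, Tars2 and Vars2, which serve mitochondria, and Sars, Aars and Wars, which serve the cytosol. The other 25 did not pass the test. At an unadjusted p under 0.05 the counts were 14 lower and 0 higher of the 31, against 17.0% lower and 22.0% higher of all genes. The median log2 change was -0.23 over the 31 genes and 0.020 over all genes tested. The estimate was below 0 for 28 of the 31 (90.3%), against 47.2% of all genes. Both CKO arrays lay below both control arrays for 22 of the 31 (71.0%), against 29.7% of all genes, and the reverse held for 2 of the 31, against 35.7% of all genes. These counts include dim probes such as those of Farsa and Aars2, whose raw intensities overlapped between the groups. The shift could be seen on each array. With each gene expressed relative to its own mean over the 4 arrays, the median over the 31 genes was -0.101 and -0.138 on the CKO arrays. On the control arrays it was 0.176 and 0.0920, and the groups did not overlap.

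**Figure D1:**
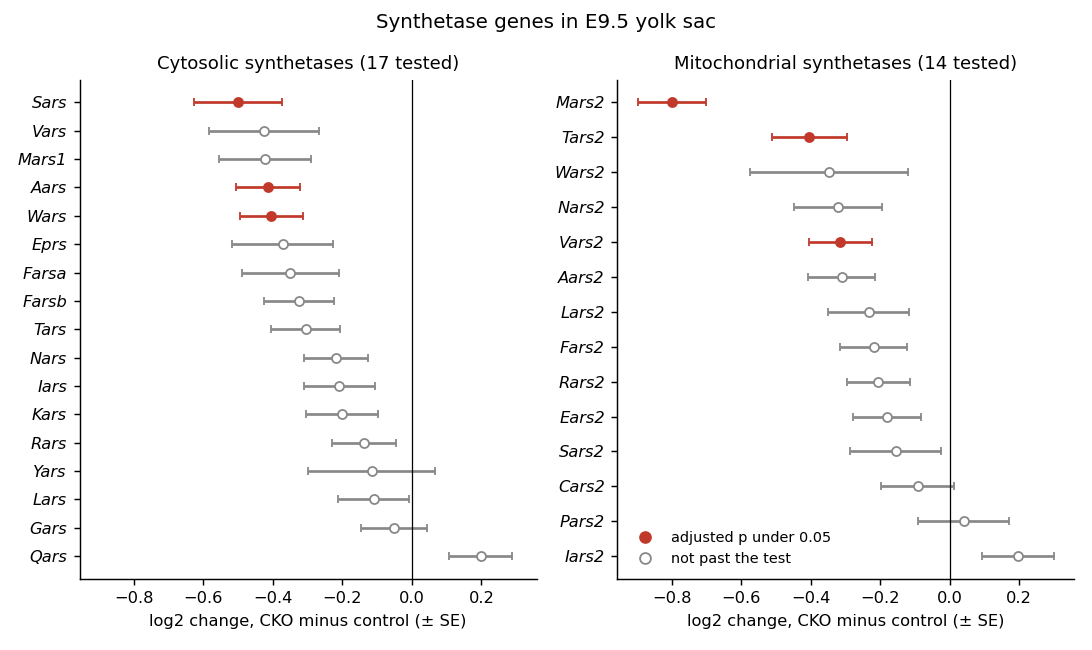
Log2 change (CKO minus control, horizontal axis, with SE, n = 2 arrays a group) of the 17 cytosolic and 14 mitochondrial synthetase genes tested. Filled red points passed the test at a limma adjusted p under 0.05. Estimates are below 0 for all genes but Qars, Iars2 and Pars2.

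Mars2 encodes the mitochondrial methionyl-tRNA synthetase, whose product also supplies the initiator methionine of mitochondrial translation after formylation. Its normalized log2 signal was 7.74 and 7.70 on the CKO arrays, against 8.58 and 8.45 on the control arrays. Both CKO arrays were low and the groups lay far apart relative to the spread within them. The log2 change of -0.80 ± 0.10 (SE, n = 2 a group, limma adjusted p = 0.00349) amounts to a signal 42.6% lower in CKO. A second Mars2 probe gave a change of -0.80 as well. The deposited raw intensities of the tested probe were 303 and 334 on the CKO arrays, against 431 and 444.5 on the control arrays. Mars2 was the only synthetase gene that passed the test under all 14 alternative settings, those that leave out an array included, with changes between -0.86 and -0.45.

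Tars2, the mitochondrial threonyl-tRNA synthetase gene, had 7.99 and 7.77 on the CKO arrays, against 8.28 and 8.30 on the control arrays, on the normalized log2 scale. It fell by 0.40 ± 0.11 (SE, limma adjusted p = 0.0380). Vars2, the mitochondrial valyl-tRNA synthetase gene, had 8.19 and 8.16 on the CKO arrays, against 8.52 and 8.46 on the control arrays. It fell by 0.32 ± 0.09 (SE, limma adjusted p = 0.0481). In both genes the groups did not overlap after normalization, but the raw intensities of Vars2 did, at 378 and 420 on the CKO arrays against 416 and 446 on the control arrays. Tars2 lost its call without CKO replicate 2 or either control array (changes of -0.30, -0.42 and -0.39), with no filter on dim probes and with median scaling over all probes (-0.32), and stood at -0.22 on the authors' values. Vars2 lost its call without any of the 4 arrays, with changes between -0.34 and -0.29. It also lost it with no filter on dim probes, with median scaling over all probes (-0.24) and with the replicate number as a block (limma adjusted p = 0.0561), and stood at -0.19 on the authors' values.

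Sars encodes the cytosolic seryl-tRNA synthetase. Its normalized log2 signal was 9.74 and 9.43 on the CKO arrays, against 10.05 and 10.12 on the control arrays. Within CKO the arrays differed more from each other than within control, and the groups did not overlap. Sars fell by 0.50 ± 0.13 (SE, limma adjusted p = 0.0315), or 29.3% of the signal. The call was lost without CKO replicate 2, at -0.35, and without control replicate 1 or 2, at -0.54 and -0.47, and with no filter on dim probes (limma adjusted p = 0.0558).

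Aars, the alanyl-tRNA synthetase gene, had 11.42 and 11.44 on the CKO arrays, against 11.88 and 11.81 on the control arrays, and fell by 0.41 ± 0.09 (SE, limma adjusted p = 0.0224). Wars, the tryptophanyl-tRNA synthetase gene, known also as an interferon-induced gene, had 9.37 and 9.33 on the CKO arrays, against 9.74 and 9.77 on the control arrays. It fell by 0.41 ± 0.09 (SE, limma adjusted p = 0.0226). For both genes the arrays of a group were close together and the groups did not overlap. Both calls were nonetheless lost when any 1 of the 4 arrays was left out, with changes between -0.45 and -0.38 for Aars and between -0.43 and -0.38 for Wars. Wars also lost its call with median scaling over all probes (-0.36).

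**Figure D2:**
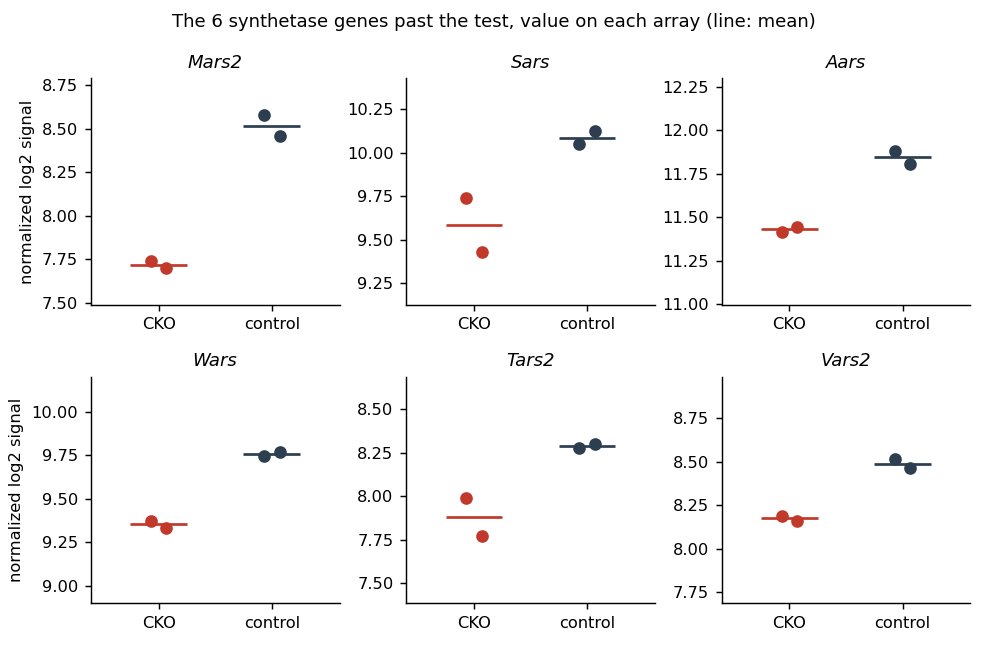
Normalized log2 signal (vertical axis, the same span of 1.3 in each panel) of the 6 synthetase genes past the test, with a point for each array and a line at the group mean, CKO on the left and control on the right. In each gene both CKO arrays lie below both control arrays, with the widest gap in Mars2. As the genes were chosen by the test on these same values, that separation adds no support to it.

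Among the 17 cytosolic genes 3 fell (17.6%) and 14 did not pass, against 10.8% lower and 14.4% higher of all genes tested. The median log2 change of the 17 was -0.31 (range -0.50 to 0.20). Next after the genes past the test came Farsb, which encodes the beta subunit of phenylalanyl-tRNA synthetase, at -0.32 ± 0.10, and Mars1, the methionyl-tRNA synthetase gene, at -0.42 ± 0.13 (SE, limma adjusted p = 0.0566 and 0.0582). Both were called under some of the alternative settings, 7 of 14 for Farsb and 9 of 14 for Mars1. The valyl enzyme gene Vars stood at -0.43 ± 0.16 and the bifunctional glutamyl-prolyl enzyme gene Eprs at -0.37 ± 0.15. Farsa, the gene of the catalytic alpha subunit that pairs with Farsb, stood at -0.35 ± 0.14, and Tars at -0.31 ± 0.10. Smaller estimates were those of Nars (-0.22), Iars (-0.21), Kars (-0.20), Rars (-0.14), Yars (-0.12), Lars (-0.11) and Gars (-0.05). Gars and Kars each encode both the cytosolic and the mitochondrial enzyme for their amino acid. Qars, the glutaminyl-tRNA synthetase gene, was the exception in sign at 0.20 ± 0.09 (limma adjusted p = 0.164). Its signal was 11.94 and 11.92 on the CKO arrays, against 11.77 and 11.70 on the control arrays, and the groups did not overlap. Qars passed the test as higher under 3 of 14 alternatives, namely the authors' values, uncorrected background and an intensity trend in the variance.

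Among the 14 mitochondrial genes 3 fell (21.4%) and 11 did not pass, against 10.8% lower and 14.4% higher of all genes tested. The median of the 14 was -0.23 (range -0.80 to 0.20). Estimates that did not pass were those of Wars2 (-0.35 ± 0.23), Nars2 (-0.32), Aars2 (-0.31), Lars2 (-0.23), Fars2 (-0.22), Rars2 (-0.21), Ears2 (-0.18), Sars2 (-0.16), Cars2 (-0.09) and Pars2 (0.04). Iars2, the mitochondrial isoleucyl enzyme gene, was above 0 at 0.20 ± 0.10, with 10.93 and 10.95 on the CKO arrays, against 10.83 and 10.65 on the control arrays. There was no overlap, and the change did not pass the test (limma adjusted p = 0.208). For 11 amino acids a mitochondrial and a cytosolic gene of matching symbol were both tested, taking Farsb for phenylalanine. Eprs (-0.37), the cytosolic gene for both glutamate and proline, was not among these pairs. Its mitochondrial counterparts were Ears2, also below 0, and Pars2, of the opposite sign. Both estimates were below 0 in 10 of these pairs, and the signs were opposite in 1, isoleucine, with Iars2 at 0.20 and Iars at -0.21. For methionine the mitochondrial estimate was the lower, with Mars2 at -0.80 and Mars1 at -0.42, and for serine the cytosolic one, with Sars2 at -0.16 and Sars at -0.50. The differences between the members of a pair were not tested.

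By structural family, 3 of 16 class I genes and 3 of 14 class II genes fell, with medians of -0.21 and -0.31. Eprs, which joins a catalytic domain of each class, was left out of both. Of the 7 tested genes whose products belong to the multisynthetase complex, 0 passed the limma test in either direction (2 had an unadjusted p under 0.05). Their median was -0.20. That count rests on the brightest probe of each gene, and dimmer probes of Eprs (-0.88) and Kars (-0.45) passed as lower. Of the 10 cytosolic genes outside the complex 3 fell, with a median of -0.34. Over all genes tested 10.8% fell and 14.4% rose. The difference between these groups was not tested, and under the alternatives the counts ran between 0 and 3 in the complex and between 0 and 7 outside it.

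Many synthetase genes are read by several probes, and 57 of the 77 probes were above background on 2 or more arrays. Tested probe by probe, 14 of the 57 were lower in CKO (24.6%) and 0 higher by limma, against 10.3% lower and 10.7% higher, or 20.9% in either direction, of 18817 probes. By compartment, 12 of 34 cytosolic probes were lower, against 2 of 23 mitochondrial probes, both of them of Mars2, since the single probes of Tars2 and Vars2 did not pass among all probes (limma adjusted p = 0.0505 and 0.0624). Of 18 genes with 2 or more such probes, 17 had estimates of the same sign on every probe, Pars2 being the exception, and in 14 of the 18 the probes lay within 0.2 of each other on the log2 scale. All 4 probes of Wars were lower (-0.65 to -0.41), as were both of Sars (-0.54 and -0.50). For Vars 2 of 3 probes passed (-0.62 and -0.52, with the brightest at -0.43). Eprs was the gene whose probes disagreed most, with a dimmer probe that passed at -0.88 and the others at -0.37 and -0.35. Kars and Farsb each had a dimmer probe that passed, at -0.45 and -0.34. The 20 probes left out were above background on fewer than 2 arrays.

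**Figure D3:**
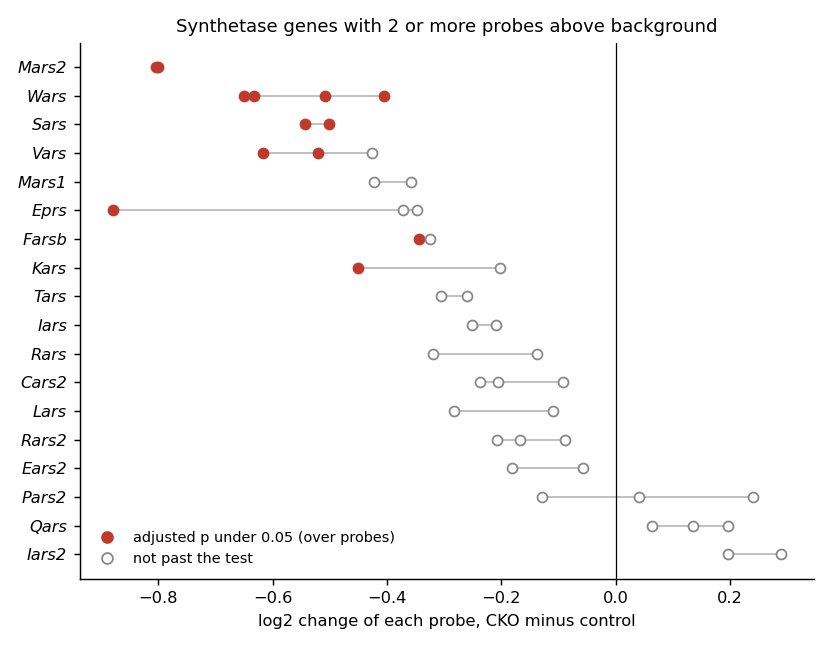
Log2 change (CKO minus control, horizontal axis) of every probe above background on 2 or more arrays, for the 18 synthetase genes with at least 2 such probes. Filled red points passed the limma test over 18817 probes. Probes of a gene mostly lie close together, with the widest spread in Eprs, between -0.88 and -0.35.

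The count of 6 depended on the processing more than the direction did. Over 10 alternatives that kept all 4 arrays, 3 to 14 synthetase genes fell, and with an array left out 1 to 4 fell. Without CKO replicate 1 there were 4, without CKO replicate 2 there were 2, without control replicate 1 there was 1, and without control replicate 2 there were 3. The share of synthetase genes called lower exceeded that of all genes under 13 of the 14 alternatives, the exception being the fit without control replicate 1 (3.23% of synthetase genes against 6.11% of all genes). The median of the synthetase genes stayed below 0 under all 14, between -0.34 and -0.17. All 14 refit the same arrays, so these tallies are not of independent checks. With median scaling over all probes the share lower was 9.68% of synthetase genes, against 6.12% of all genes. Scaling each array to the same median over all probes in place of quantile normalization changed the split over all genes, with 70.3% of calls higher in place of 57.2%, and under it Aars, Mars2 and Sars were the synthetase genes that fell.

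**Figure D4:**
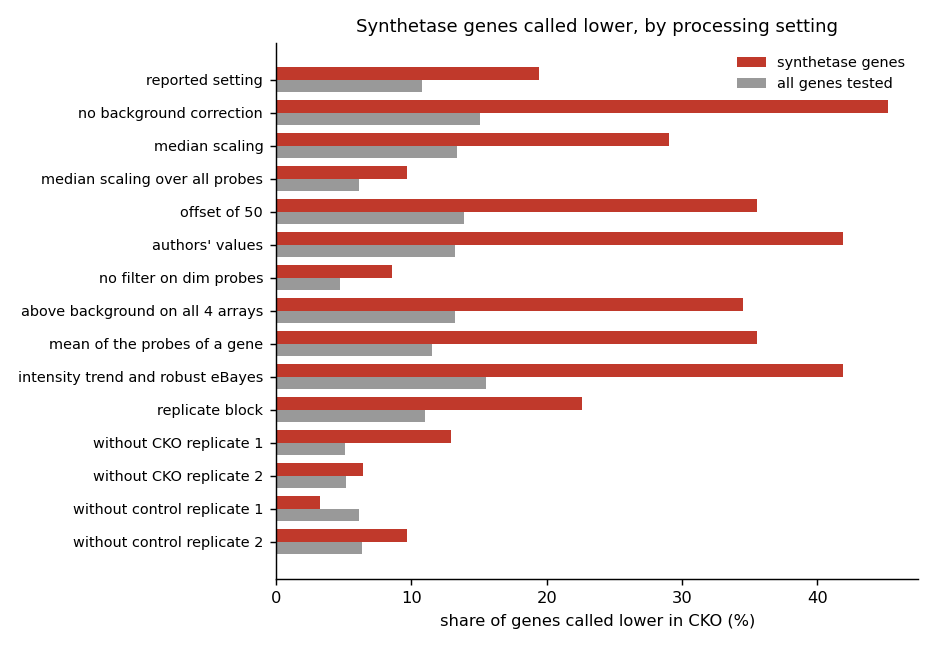
Share of genes called lower in CKO (horizontal axis, in %), for the 31 synthetase genes (red) and for all genes tested (grey), under the reported setting and each alternative. The number of synthetase genes tested is 31 except with no filter on dim probes (35) and with detection on all 4 arrays (29). The red bar is longer in all settings but the fit without control replicate 1.

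The RNA of genes whose products work with the synthetases was lower in part, beside 10.8% of all genes tested lower and 14.4% higher. All 3 scaffold genes of the multisynthetase complex fell, with changes of -0.54 ± 0.10 for Eef1e1, -0.45 ± 0.09 for Aimp1 and -0.38 ± 0.10 for Aimp2 (SE, limma adjusted p = 0.0119, 0.0178 and 0.0349). Eef1e1 had 10.68 and 10.76 on the CKO arrays, against 11.20 and 11.33 on the control arrays, and the groups did not overlap. Its call was lost without CKO replicate 1 (-0.50), that of Aimp1 without either CKO array or control replicate 2 (-0.49 to -0.41), and that of Aimp2 without any of the 4 arrays (-0.45 to -0.31), with no filter on dim probes, with the mean of its probes (-0.29) and with median scaling over all probes. Of 14 genes that mature, proofread or extend the charging of tRNA, 5 fell, 0 rose by limma (0 were higher at an unadjusted p under 0.05) and 9 did not pass, with a median of -0.24. Those that fell were Tarsl2 (-0.59), a threonyl enzyme paralogue, and Elac2 (-0.44), which trims the 3′ end of tRNA. With them fell Aarsd1 (-0.42), an editing enzyme for mischarged tRNA of alanine, Dtd2 (-0.37), a deacylase, and Trnt1 (-0.36), which adds the terminal CCA. Each of these 5 lost its call without at least 3 of the arrays in turn. Elac2, Aarsd1, Dtd2 and Trnt1 also lost it with median scaling over all probes. Tarsl2 lost it on the authors' values (-0.12), and Dtd2 on those values (-0.06), without background correction (-0.12) and with an offset of 50 (-0.21).

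In mitochondria the charged tRNAs pass to elongation factors and several are modified first. Of 11 such partner genes 7 fell by limma (63.6%, against 10.8% of all genes tested) and 0 rose (against 14.4%). At an unadjusted p under 0.05, 0 were higher. The other 4 did not pass, and the median of the 11 was -0.37. Gfm1, the elongation factor G gene, fell by 0.61 ± 0.11, with 7.97 and 8.19 on the CKO arrays, against 8.64 and 8.73 on the control arrays. Qrsl1, a subunit gene of the amidotransferase that makes mitochondrial glutaminyl-tRNA from glutamyl-tRNA, fell by 0.58 ± 0.10 (limma adjusted p = 0.0121 for Gfm1 and 0.00940 for Qrsl1). A dimmer Gfm1 probe stood at -0.13 and did not pass, and the gene stood at -0.37 with the mean of its probes and on the authors' values. In both genes the CKO arrays lay below the control arrays, and of the fits that leave out an array only the one without CKO replicate 1 ended their calls, at -0.50 and -0.51. Gatc, another subunit of that enzyme (-0.42), the tRNA modification genes Mto1 (-0.42) and Gtpbp3 (-0.37) and Tufm, the elongation factor Tu gene (-0.41), fell too. These 4 lost their calls when any 1 array was left out, and with median scaling over all probes. Among 6 cytosolic elongation factor genes 0 passed the limma test (2 had an unadjusted p under 0.05), against 25.2% of all genes tested in either direction. The median of the 6 was -0.09.

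The amino acid response list holds Atf4 and genes that it is known to drive together with the cytosolic synthetases, and it moved unevenly. Of 30 tested genes of that list 12 fell (40.0%), 4 rose and 14 did not pass, with a median of -0.22. Over all genes tested 10.8% fell and 14.4% rose, so the 4 that rose are near the latter share. Slc7a3, a transporter of cationic amino acids, had 5.40 and 5.56 on the CKO arrays, against 7.39 and 7.32 on the control arrays, a change of -1.88 ± 0.10 (SE, limma adjusted p = 0.000354). That value is of the brighter Slc7a3 probe, and the other stood at 0.07 and did not pass. Trib3, a pseudokinase that restrains ATF4, had 7.87 and 7.91 on the CKO arrays, against 9.61 and 9.34 on the control arrays, a change of -1.59 ± 0.12. Asns, the asparagine synthetase gene and a standard readout of the pathway, had 10.998 and 11.04 on the CKO arrays, against 12.04 and 11.93 on the control arrays, a change of -0.97 ± 0.10. In these 3 genes the gap between the groups was several times the spread within them. The stress genes Ddit3 (-1.26) and Nupr1 (-1.23) and the mitochondrial folate enzyme gene Mthfd2 (-1.06) also fell, and all 6 kept their calls under each of the 14 alternatives. Their size did not hold in the same way, since on the authors' values Slc7a3 stood at -0.52, Trib3 at -1.05, Ddit3 at -0.43 and Nupr1 at -0.25. Atf4 is itself on the list and among the 12 that fell. It was at 11.67 and 11.69 on the CKO arrays, against 12.57 and 12.43 on the control arrays, a change of -0.82 ± 0.10 (limma adjusted p = 0.00341). The list was not uniform, since Ddit4, an inhibitor of mTORC1 signalling, rose by 0.95 ± 0.10, and Vldlr, Aldh18a1 and Jdp2 rose by 0.55, 0.49 and 0.36. Atf4 and the genes that rose were chosen for naming after their values were seen.

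**Figure D5:**
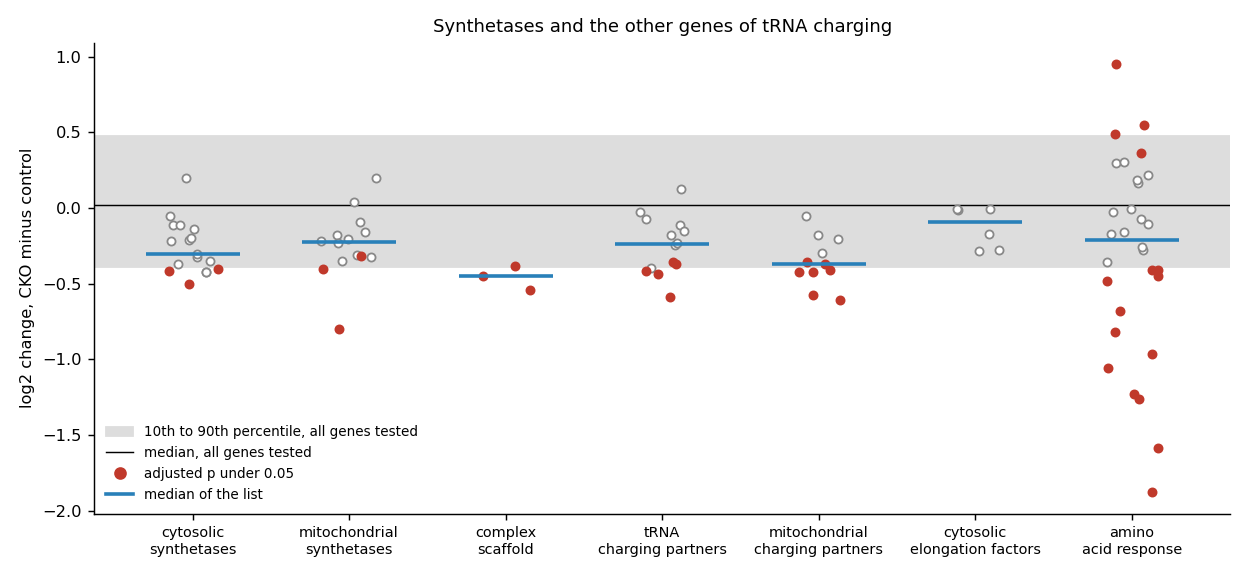
Log2 change (CKO minus control, vertical axis) of the cytosolic and mitochondrial synthetase genes and of the partner and amino acid response lists, each point a gene and each blue line the median of a list. Red points passed the limma test, and the grey band spans the 10th to 90th percentile of all genes tested (-0.39 to 0.47). The amino acid response genes spread widest, between -1.88 and 0.95.

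ATF4 and its C/EBP partners bind a composite element whose core is TGATGNAA. RefSeq promoter windows (build GRCm38.p6, 250 bases before the start of the gene to 50 after) were at hand for 26 of the 35 synthetase genes, and both strands were searched. The core was found in 5 of 12 cytosolic genes (41.7%) and 0 of 14 mitochondrial genes, against 4.51% of all 27025 genes with a window, 4.13% of the protein-coding ones and 36.4% of the 33 amino acid response genes that had one. The E-box CACGTG, which reads the same on both strands, was found in 4 of the 12 cytosolic and 1 of the 14 mitochondrial genes, against 8.09% of all genes. The core is shown where it was found in 4 of the 5 cytosolic genes that held it, so that its place and neighbouring bases can be read. The stretches follow 5′ to 3′ on the strand of the gene with the core, as found, in capitals.
Gars, 30 bases before the start, chr6:55037960-55037989: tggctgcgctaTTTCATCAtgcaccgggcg
Iars, 8 bases after the start, chr13:49682126-49682155: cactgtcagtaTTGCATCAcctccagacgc
Tars, 15 bases before, chr15:11399655-11399684: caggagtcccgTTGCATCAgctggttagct
Yars, 4 bases after, chr4:129189895-129189924: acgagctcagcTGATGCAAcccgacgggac
Tars lies on the minus strand and the others on the plus strand, and distances run between the start of the gene and the first base of the core.

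The genes shown stood at -0.31 (Tars), -0.21 (Iars), -0.12 (Yars) and -0.05 (Gars). A match of letters is a description and does not show that a factor binds there.

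Several cell type marker lists moved between the groups as well, though not all. For scale, 10.8% of all genes tested were lower in CKO and 14.4% higher. Of 12 tested erythroid genes 8 were lower and 0 higher by limma. Their summed normalized signal was 99387 and 99596 on the CKO arrays, against 108543 and 108377 on the control arrays. Embryonic globin genes did not pass the test, with log2 changes of -0.019 for Hbb-bh1, 0.019 for Hbb-y and -0.046 for Hba-x. Their limma adjusted p-values were 0.907, 0.905 and 0.747. Of 12 parietal endoderm genes 10 were higher, with sums of 33822 and 34513 on the CKO arrays, against 20015 and 20009 on the control arrays. Mesothelium and mesenchyme genes were higher in 7 of 13 cases, with sums of 32988 and 33502 on the CKO arrays, against 26542 and 26285 on the control arrays. Vim was on both this list and that of parietal endoderm, so its signal is in both sums. Cardiac muscle genes were higher in 7 of 8 cases, with sums of 2293 and 2093 on the CKO arrays, against 953 and 925 on the control arrays, and the cardiac markers Myh6, Myh7 and Nkx2-5 were not above background. Of 12 visceral endoderm genes 0 passed the limma test, with sums of 100419 and 97862 on the CKO arrays, against 99157 and 98716 on the control arrays. Endothelial genes went both ways, with 3 of 11 lower and 2 higher, sums of 7893 and 7750 on the CKO arrays, against 7917 and 7879 on the control arrays, and Kdr below background. Trophoblast and decidua genes were lower in 2 of 6 cases and higher in 4, with sums of 2023 and 2280 on the CKO arrays, against 656 and 637 on the control arrays, and with Tpbpa and Ascl2 not above background. Of 5 macrophage genes 1 was lower and 2 higher, with sums of 1053 and 1112 on the CKO arrays, against 1347 and 1448 on the control arrays, and Adgre1, C1qa and Ptprc were not above background. The part of these cell types in the synthetase values was not tested.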

How the data were processed

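Total RNA of 4 yolk sac samples, 2 labelled CKO and 2 control, was measured on Illumina bead arrays. The authors deposited a non-normalized table, which per the file headers holds a linear intensity and a detection p-value for each probe and array, and whose values show no subtraction of background. Each detection p-value column was tied to the signal column on its left, with which it falls (Spearman rho between -0.990 and -0.984 across probes). The authors' processed intensity values, quantile-normalized as judged from the values, served as an alternative. Per the submitters' processing notes lumi 2.15.1 was among the tools, and its role and any other upstream step are unstated in what was used.

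Signals were corrected and normalized with neqc of limma 3.58.1 in R 4.3.3 (background from detection p-values, offset 16, quantile, log2). Of 18817 probes above background on 2 or more arrays 16301 had a single gene symbol, and the brightest probe stood for each of 10603 genes. Of all 45281 probes 34885 had 1 symbol, 18 several and 10378 none here. lmFit and eBayes were fitted to group alone, two-sided, with Benjamini-Hochberg adjustment over all genes (or probes) at 0.05. The fit was also run on simulated data whose errors were independent between arrays. That run cannot speak to variation shared by the arrays of a group. An exact permutation test of 2 against 2 arrays is too small to pass that threshold, so p-values rest on the spread limma shares across genes. Log2 changes are CKO minus control. Marker sums are of linear normalized signal after subtracting the offset.

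All synthetase genes are named, with Etv2 and, for every partner list, at most 6 called genes that changed most; markers are given by counts. Members and lists were chosen with earlier results of these data known. Lists are described by counts and medians without a set test. Alternatives were no background correction, scaling to the median of kept probes or of all probes (the latter chosen after seeing the data), an offset of 50, the authors' values, 2 other filters on dim probes, the mean of a gene's probes, an intensity trend with robust estimation, the replicate number as a block and leaving out each array. Some promoter sequence is not reported here.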

Additional observations from a re-analysis of the deposited data

How the results depend on the processing

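With 2 arrays a group, leaving out an array leaves a lone array assumed to vary like the other group. Dim probes such as those of Nars2, Wars2, Farsa and Aars2 are limited by signal over background. The direction of the synthetase median held under all 14 alternatives, and Mars2 alone among synthetase genes kept its call in each. The cause of the changes below was not tested. Replicate numbers did not pair the arrays (correlation of deviations 0.0689). With the replicate block 7 synthetase genes fell, 5 cytosolic and 2 mitochondrial, 1 of them in the complex, and 12 probes.

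The number of lower synthetase genes was 14 without background correction (10 cytosolic, 4 mitochondrial), 9 with median scaling (6 cytosolic, 3 mitochondrial), 3 with median scaling over all probes (2 and 1) and 11 with an offset of 50 (8 and 3). It was 13 on the authors' values (8 and 5), 3 with no filter on dim probes (2 and 1), 10 with detection on all 4 arrays (6 and 4), 11 with the mean of a gene's probes (8 and 3) and 13 with an intensity trend and robust estimation (10 and 3). The share of all genes called lower also moved with the setting. In the same order it was 15.1%, 13.4%, 6.12%, 13.9%, 13.2%, 4.76%, 13.2%, 11.5% and 15.5%. A single higher gene, Qars, cytosolic, class I and in the complex, made 1 higher call on the authors' values, with the trend and without background correction. In the same order of settings, lower class I genes numbered 6, 4, 1, 5, 6, 2, 4, 5 and 6, and class II genes 7, 5, 2, 5, 7, 1, 6, 5 and 6. Lower genes in the complex numbered 3, 1, 0, 2, 2, 0, 1, 3 and 3, and cytosolic genes outside it 7, 5, 2, 6, 6, 2, 5, 5 and 7.

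Lower synthetase probes numbered 27 without background correction, 19 with median scaling, 6 with median scaling over all probes, 24 with an offset of 50, 24 on the authors' values, 7 with no filter, 17 with detection on all 4 arrays and 27 with the trend. Probes called higher numbered 1 without background correction and with an offset of 50, and 2 on the authors' values and with the trend. On the partner and amino acid response lists 27 genes fell and 4 rose in the reported fit, 15 fell with median scaling over all probes, 7 rose on the authors' values, and 6 rose without background correction and with the trend.

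With an array left out, lower calls ran between 1 and 4 for synthetase genes, 0 and 2 for cytosolic and 1 and 2 for mitochondrial ones, 1 and 2 for class I, 0 and 2 for class II, 0 and 1 in the complex, 0 and 2 outside it, 2 and 5 for probes and 8 and 14 on the lists, where higher calls ran between 1 and 2. Medians then lay between -0.34 and -0.23 for all synthetases, -0.36 and -0.26 for cytosolic and -0.26 and -0.22 for mitochondrial ones. The Etv2 change lay between 0.39 and 0.53, and was 0.13 on the authors' values.

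The median of all synthetases was -0.32 with median scaling, -0.17 on the authors' values and -0.28 with the mean of probes. That of cytosolic genes was -0.21 on the authors' values, with an offset of 50 and without background correction, -0.35 with median scaling and -0.25 with it over all probes. That of mitochondrial genes was -0.14 without background correction, -0.28 with median scaling, -0.10 on the authors' values and -0.18 with median scaling over all probes. Signs turned for 4 synthetase genes that did not pass, namely Cars2 (0.0062 without CKO replicate 2), Gars (0.0044 without control replicate 1), Pars2 (-0.13 without CKO replicate 1) and Yars (0.067 without CKO replicate 1, 0.11 without control replicate 1). With each array left out in turn, Cars2 ran between -0.19 and 0.0062, Gars between -0.11 and 0.0044, Pars2 between -0.13 and 0.21 and Yars between -0.34 and 0.11.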
